A study of Mus musculus with 12 samples.

Results

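The HOX genes of both fat depots are described here by their open chromatin. The members were the ATAC-seq peaks that the deposited tables assign to 1 of 38 listed genes of the HOX A, B, C and D clusters. They came to 52 of the 58558 peaks of brown adipose tissue (BAT) and 31 of the 39558 peaks of inguinal white adipose tissue (iWAT), 83 of 98116 in all. At least 1 peak was assigned to 34 of the 38 genes, to 32 in BAT and to 22 in iWAT, and none to Hoxa6, Hoxa11, Hoxc12 or Hoxd4. In ATAC-seq a transposase cuts open DNA, so the reads at a site measure its accessibility.

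All mice were of the C57BL/6 strain and carried BAF60a flox/flox alleles. Flox mice had no Cre, and AKO mice also carried Adiponectin-Cre, a Cre driven by a promoter active in adipocytes, so that other cell types of the whole tissue keep BAF60a. BAF60a is a subunit of the SWI/SNF chromatin remodelling complexes and is encoded by Smarcd1. BAT was taken from 3 flox and 3 AKO mice, 1 mouse per sample, and the age and housing temperature of these mice are not given in the sources used here. The iWAT of 6 flox mice was pooled and divided into 3 aliquots, and that of 6 AKO mice likewise. These donors were 6 to 8 months old and had been held at 10 °C for 7 days. The p-values of iWAT therefore cover the spread between aliquots and not between mice. Depot, cold acclimation, pooling and sequencing run cannot be told apart, and the tables were normalized separately, so levels of the depots are set side by side without a test.

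HOX genes encode homeodomain transcription factors that give cells their position along the head to tail axis. Within a cluster the order of the genes matches the order of their expression along the body, so that low paralog numbers mark anterior and high numbers posterior tissue. Polycomb complexes keep the clusters silent where they are not used, and trithorax and SWI/SNF complexes act against that silencing. In fat, HOX expression is known to differ between depots and to persist in cultured preadipocytes. Hoxc8, Hoxc9 and Hoxc10 are known as genes of subcutaneous white fat, and Hoxc8 and Hoxc10 are known to repress thermogenic genes.

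Reads in peaks ran from 6336670 to 27500738 per BAT sample and from 4066720 to 6691161 per iWAT sample. In BAT, AKO replicate 2 was the shallowest library and stood apart, with a score of 112 on principal component 1 (PC1), which ran from −98.2 in the deepest library, flox replicate 1, and held 55.6% of the variance. A Smarcd1 peak from 99704113 to 99704521 on chromosome 15 held 136, 201 and 185 normalized reads in flox and 23.7, 57.9 and 26.9 in AKO BAT. The other Smarcd1 peak of BAT, over the start of the gene, held 485, 456 and 369 in flox and 412, 417 and 497 in AKO. The only Smarcd1 peak of iWAT also lay over that start, with 249, 188 and 211 in flox and 233, 229 and 230 in AKO, so it does not check the iWAT labels. Normalized reads are the deposited values, the reads of a peak over the size factor of its sample. CPM below are the reads of a peak scaled to 1000000 reads in peaks per sample. Peaks of 5 brown adipocyte markers summed to 1312 to 1553 CPM in flox BAT and to 231 to 251 in flox iWAT, and those of preadipocyte and fibroblast markers to 117 to 124 and to 288 to 306.

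Sequences upstream of 3 HOX start sites are shown because the depots or genotypes differed in the peak beside them. Each runs 5′ to 3′ over the 250 bases before the RefSeq start on the minus strand of chromosome 6, build GRCm38.p6 (mm10), with CpG sites in capitals. The Hoxa5 window (chr6:52204588-52204837, 28 CpG) was partly covered by a BAT peak with no iWAT counterpart, the Hoxa10 window (chr6:52234940-52235189, 20 CpG) lies upstream of an exon 1 peak listed for iWAT alone, and the Hoxa13 window (chr6:52260881-52261130, 35 CpG) lay whole inside a BAT peak that was higher in all 3 AKO mice.
Hoxa5: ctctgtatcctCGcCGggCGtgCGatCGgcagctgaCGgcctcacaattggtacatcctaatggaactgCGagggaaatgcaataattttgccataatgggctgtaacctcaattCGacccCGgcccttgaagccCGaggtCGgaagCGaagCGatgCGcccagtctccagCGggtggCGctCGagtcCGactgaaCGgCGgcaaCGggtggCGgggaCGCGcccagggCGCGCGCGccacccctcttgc
Hoxa10: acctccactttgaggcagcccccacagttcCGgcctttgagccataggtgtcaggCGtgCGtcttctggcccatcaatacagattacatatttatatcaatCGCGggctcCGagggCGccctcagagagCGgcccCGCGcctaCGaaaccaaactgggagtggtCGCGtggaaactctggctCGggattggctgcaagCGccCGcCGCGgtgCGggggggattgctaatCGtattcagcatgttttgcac
Hoxa13: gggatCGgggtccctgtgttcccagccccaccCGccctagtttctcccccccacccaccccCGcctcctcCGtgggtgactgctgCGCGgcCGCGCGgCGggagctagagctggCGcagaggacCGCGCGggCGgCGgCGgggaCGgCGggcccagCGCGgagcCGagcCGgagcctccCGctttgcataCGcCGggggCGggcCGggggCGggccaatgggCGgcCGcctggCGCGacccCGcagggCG
RefSeq's promoter table held 22 of the 38 genes. Hoxc8, Hoxc9 and Hoxc10 were among the others.

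The depots differed in how many HOX peaks they had and where these lay. BAT had 8 peaks in the A cluster, 17 in the B cluster, 17 in the C cluster and 10 in the D cluster, and iWAT had 7, 10, 11 and 3. In BAT 15 of the 38 start sites lay under a peak and in iWAT 4, with 3 in common (Hoxa3, Hoxa4 and Hoxd9). The only start under an iWAT peak and no BAT peak was that of Hoxc10. Of the 52 BAT peaks, 25 (48.1%) overlapped an iWAT peak by at least 1 bp, against 53.8% of all BAT peaks, and of the 31 iWAT peaks 28 (90.3%) overlapped a BAT peak, against 80.5%. BAT was sequenced more deeply and its HOX peaks were wider, with a median of 712 bp against 467 bp in iWAT, and the part of depth in these numbers was not tested.

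**Figure D1:**
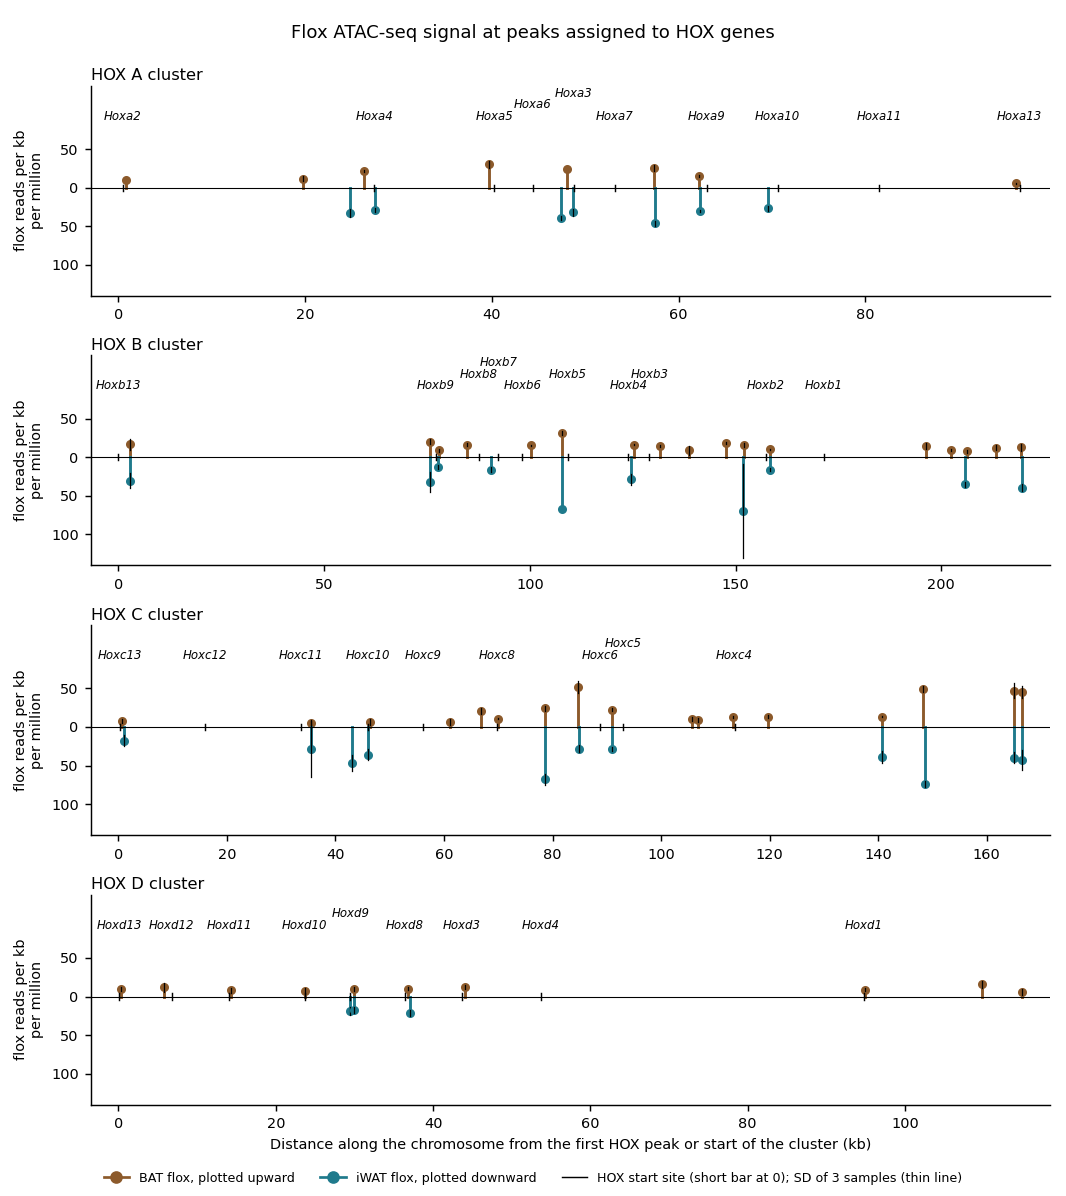
Mean signal of the 3 flox samples at each HOX peak, in CPM per kb of peak, with BAT drawn upward and iWAT downward along each cluster (x axis, distance in kb). BAT peaks line the whole D cluster from Hoxd13 to Hoxd1, where iWAT has 3 peaks, at Hoxd9 and Hoxd8. An 8 bp iWAT peak in Hoxb3 has the widest error bar.

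In the A cluster, on chromosome 6, the clearest contrast was Hoxa5, a gene of trunk and lung patterning that is expressed in fat. A BAT peak from 52203372 to 52204698 over its start and exon 1 held 668, 464 and 523 normalized reads in flox and 530, 363 and 461 in AKO replicates 1, 2 and 3, or 40.4 ± 5.85 CPM (SD, n = 3) in flox. No iWAT peak overlapped it. It was the BAT peak of highest flox signal without an iWAT counterpart. The peak over the start of Hoxa2, a gene of the second branchial arch and hindbrain, held 222, 200 and 208 normalized reads in flox BAT and was likewise listed for BAT alone. The same held for a peak in exon 3 of Hoxa3, from 52183375 to 52184931 and assigned to Hoxa4, with 194, 240 and 299 normalized reads in flox.

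Toward the posterior end of the A cluster, iWAT had a peak in exon 1 of Hoxa10 that BAT lacked. Hoxa10 patterns the lumbar region and the uterus. Its peak, from 52233561 to 52234347, held 101, 85.6 and 110 normalized reads in flox and 111, 93.6 and 108 in AKO aliquots, and the genotypes overlapped. Hoxa9, a gene of the lower trunk and of blood progenitors, had an iWAT peak from 52225987 to 52227262 with 177, 183 and 188 in flox and 191, 180 and 165 in AKO, or 38.6 ± 1.42 CPM in flox. It was the highest iWAT peak of the cluster, within the SD of the next, at Hoxa4. Its BAT peak held 23.4 ± 1.82. BAT peaked instead at Hoxa4, where 1 peak of 3493 bp over the start held 983, 1004 and 1057 normalized reads in flox, or 74.8 ± 6.18 CPM. It overlapped 2 iWAT peaks, with 37.7 ± 3.88 CPM at the start and 9.83 ± 1.46 downstream.

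In the B cluster, on chromosome 11, Hoxb4, a gene of the neck and of blood stem cells, carried the highest flox CPM per peak of both depots, in iWAT within the SD of Hoxb1 and Hoxb5. Per kb of peak Hoxb5 was higher, at 31.2 against 16.5 in BAT and 67.0 against 28.5 CPM per kb in iWAT. The Hoxb4 peak held 669, 640 and 554 normalized reads in flox BAT and 149, 100 and 163 in flox iWAT, or 45.6 ± 2.95 and 29.0 ± 6.93 CPM. The BAT peak covered the start, and the iWAT peak began just downstream of it. Among iWAT peaks without a BAT counterpart the highest lay in exon 2 of Hoxb8, from 96284110 to 96285502 and was assigned to Hoxb7. It held 97.7, 126 and 91.2 normalized reads in flox and 108, 105 and 111 in AKO. Neither depot had a peak over the start of Hoxb1, the most anterior member, and all peaks assigned to it lay 24943 to 48133 bp downstream, 5 in BAT and 2 in iWAT.

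The C cluster, on chromosome 15, holds the genes best known from white fat, and Hoxc10, a gene of the lumbar region and hind limb, showed a depot difference at its start. The iWAT peak from 102966437 to 102967270 covered the start and held 164, 152 and 110 normalized reads in flox and 126, 131 and 123 in AKO. The BAT peak, from 102967102 to 102967370, lay inside exon 1 and held 16.7, 14.04 and 36.2 in flox and 36.1, 94.6 and 53.7 in AKO. Per length, flox signal was 36.0 ± 7.0 CPM per kb in iWAT and 6.18 ± 3.57 in BAT, a ratio of 5.83. These Hoxc10 peaks share 169 bp, so the ratio is of unlike windows. The BAT peak held only 32, 19 and 28 reads in flox. The median ratio over the 30853 pairs of peaks that matched one to one between the depots was 1.62, and 0.240% of these pairs had a ratio as high. Over the 22 such pairs of HOX peaks the median was 1.89, with every iWAT flox sample above every BAT flox sample in 14 and below in 1, at Hoxc6, against 68.6% and 5.86% of all pairs. A further iWAT peak upstream of the Hoxc10 start, from 102963778 to 102964035, held 72.7, 50.03 and 48.2 in flox and 47.3, 69.6 and 90.9 in AKO and had no BAT counterpart.

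Hoxc8 and Hoxc9 did not follow Hoxc10. The start of Hoxc8, a trunk patterning gene, lay under a BAT peak from 102990593 to 102991160, with 95.1, 80.5 and 72.4 normalized reads in flox and 90.7, 162 and 97.9 in AKO. No iWAT peak covered it. An iWAT peak 8783 bp downstream of the Hoxc8 start, from 102999023 to 102999757, held 262, 209 and 237 normalized reads in flox and 227, 213 and 192 in AKO. It was the highest iWAT peak of the cluster, within the SD of the next, with 49.9 ± 5.32 CPM in flox against 20.9 ± 2.87 in its BAT counterpart, and 67.9 against 24.1 CPM per kb. Hoxc9, which specifies thoracic identity, had no peak at its start in either depot and no iWAT peak was assigned to it. Its lone BAT peak, in exon 2 from 102981796 to 102981979, held 7.32, 15.5 and 25.9 normalized reads in flox.

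**Figure D2:**
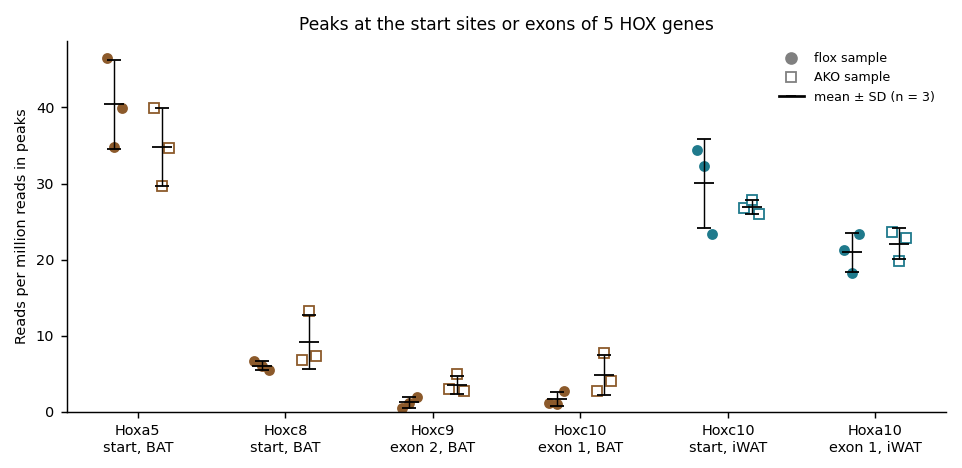
CPM of each sample (points) at 6 peaks beside the starts or exons of Hoxa5, Hoxc8, Hoxc9, Hoxc10 and Hoxa10, with the mean and SD of 3 samples per genotype. Hoxa5 in BAT and Hoxc10 in iWAT lie above 20 in every sample, and the Hoxc9 and Hoxc10 peaks of BAT lie below 10.

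The strongest BAT peak of the C cluster lay 34790 bp downstream of the Hoxc4 start, between genes, and had an iWAT counterpart. From 103068519 to 103069852 it held 1023, 841 and 808 normalized reads in flox and 737, 516 and 810 in AKO BAT. The iWAT peak inside it held 249, 221 and 233 in flox and 249, 215 and 221 in AKO. Both stood high in their table, above 92.1% and 90.8% of all peaks by flox CPM per kb. The start of Hoxc4, a gene of the neck region, lay under a peak of BAT alone, from 103033220 to 103035071, with 326, 358 and 316 in flox and 310, 382 and 345 in AKO.

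The D cluster, on chromosome 2, was the most uneven between the depots. BAT had a peak over the starts of Hoxd13, Hoxd11, Hoxd10, Hoxd9, Hoxd8 and Hoxd1, and iWAT over that of Hoxd9. Hoxd10 to Hoxd13 pattern the limbs and the lumbosacral region. Their 4 BAT peaks were weak, at 1.08 to 8.39 CPM in flox. The highest D peak of both depots lay at Hoxd8, with 235, 191 and 279 normalized reads in flox and 227, 369 and 275 in AKO BAT. The iWAT values were 104, 136 and 105 in flox and 81.8, 106 and 108 in AKO. In CPM the flox means were 17.4 ± 3.61 in BAT and 24.3 ± 3.89 in iWAT.

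Grouped by paralog number, the depots divided their HOX signal differently. In flox BAT, peaks of groups 1 to 3 summed to 163 ± 14.5 CPM, those of groups 4 to 8 to 458 ± 13.8 and those of groups 9 to 13 to 97.3 ± 22.1. In flox iWAT the sums were 91.0 ± 4.80, 350 ± 2.14 and 144 ± 3.69. The posterior groups 9 to 13 thus held 11.3%, 13.3% and 15.7% of the HOX reads in flox BAT replicates 1, 2 and 3 and 24.8%, 25.3% and 23.9% in iWAT aliquots. All iWAT shares lay above all BAT shares, and this also held in AKO samples, at 15.8% to 21.1% in BAT and 25.3% to 26.4% in iWAT. The iWAT to BAT ratio of flox signal was 0.56 in groups 1 to 3, 0.76 in groups 4 to 8 and 1.48 in groups 9 to 13. The 1.48 did not hold for each gene. In groups 11 to 13, Hoxa13, Hoxd11, Hoxd12 and Hoxd13 had peaks in BAT alone, at 9.03, 8.39, 1.08 and 6.78 CPM. Hoxc13 held 10.2 in BAT and 8.32 in iWAT. Hoxb13 and Hoxc11 went the other way, at 4.64 and 0.637 in BAT and 7.56 and 1.93 in iWAT. Hoxa9, Hoxa10 and Hoxc10 had more signal in iWAT, and Hoxc9 and Hoxd10 had peaks in BAT alone. By cluster the iWAT to BAT ratio was 0.64 in A, 0.95 in B, 0.97 in C and 0.55 in D. Over peaks with a counterpart in the other depot alone it was 0.849, 1.16, 1.19 and 1.39, so that the direction turned in B, C and D. The first ratios are of sums over 4971, 6030, 5664 and 1905 bp of peaks in iWAT and 13505, 11610, 12394 and 7312 bp in BAT. Per kb of peak the mean flox signal was 31.3, 25.7, 41.8 and 19.9 CPM in iWAT and 17.9, 14, 19.8 and 9.41 CPM in BAT.

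Depth moved with the anterior and posterior signal inside BAT. From the deepest to the shallowest of the 6 BAT libraries, peaks of groups 9 to 13 held 77.5, 93.3, 128, 118, 121 and 183 CPM. The deepest library was thus the lowest and the shallowest the highest. Groups 1 to 3 held 148, 163, 185, 184, 177 and 229 CPM in the same order of libraries, with the same ends. Groups 4 to 8 showed no such order, at 443 to 475 CPM. Every iWAT library was shallower than all but 1 of the BAT libraries. That library, AKO replicate 2, held more CPM in groups 9 to 13 than any iWAT library (140 to 156 CPM). The part of depth in the difference between the depots was not tested.

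**Figure D3:**
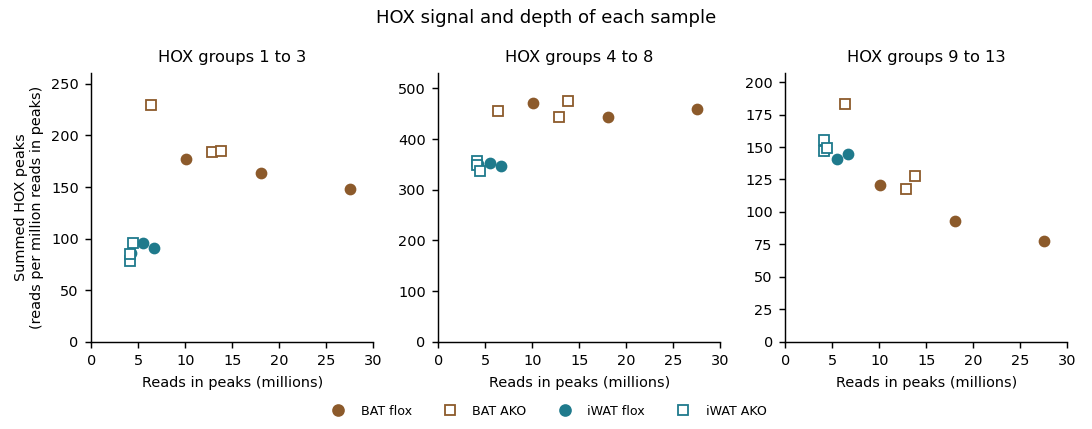
Summed CPM of the HOX peaks of paralog groups 1 to 3, 4 to 8 and 9 to 13 (y axis) against the reads in peaks of each sample (x axis, in units of 1000000). Filled circles are flox and open squares AKO samples, in brown for BAT and blue-green for iWAT. From the deepest to the shallowest library, the BAT samples run from 77.5 to 183 in groups 9 to 13 and from 148 to 229 in groups 1 to 3.

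AKO and flox BAT were compared next, to ask whether loss of BAF60a in adipocytes moved HOX accessibility. By limma on log2(normalized reads + 1) over all 58558 peaks, with PC1 as a covariate, 0 of 52 HOX peaks passed an adjusted p of 0.1, and 0 of all peaks did (0%). Even the Smarcd1 peak that was lower in AKO, at a log2 fold change of −2.98, had an adjusted p of 0.269 by limma. That was the lowest of all BAT peaks, so the lack of HOX calls does not show that HOX peaks were unchanged. At an unadjusted p under 0.05, 2 HOX peaks were higher and 1 was lower in AKO (3.85% and 1.92%), against 3.46% and 5.59% of all peaks. edgeR and DESeq2 with the same covariate also called 0 HOX peaks. edgeR called 0.029% of all peaks higher and 0.114% lower, and DESeq2, which gave an adjusted p to 36 of the 52 HOX peaks, 0.11% and 0.298%. The median log2 fold change was 0.07 over HOX peaks and 0.01 over all peaks, and single HOX peaks ranged from −1.01 to 1.26. With 3 mice against 3, the smallest p of an exact permutation test is 0.1. In whole tissue, fewer cells of a type and less open chromatin per cell cannot be told apart.

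Among peaks with higher values in AKO, the 2 with the smallest unadjusted p lay at weak sites of the C cluster. Hoxc11, a hind limb gene, had a peak of 117 bp in its intron with 6.27, 5.17 and 14.2 normalized reads in flox and 28.9, 19.3 and 22.1 in AKO, and the genotypes did not overlap. Its log2 fold change was 1.26 with PC1 (SE 0.45, adjusted p = 0.515 by limma) and 1.45 without. The Hoxc9 peak in exon 2 held 7.32, 15.5 and 25.9 in flox and 39.2, 59.9 and 36.5 in AKO, a log2 fold change of 0.70 (SE 0.28, adjusted p = 0.540 by limma). Without PC1 it was 1.54 (SE 0.40, adjusted p = 0.336 by limma). All 3 AKO mice lay above all 3 flox mice at Hoxc9 too.

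Lower values in AKO were fitted at a peak 15009 bp downstream of Hoxd1, a gene of sensory neurons, with 48.6, 69.5 and 82.8 normalized reads in flox and 35.1, 92.7 and 49.9 in AKO. The genotypes overlapped there, and AKO replicate 2 was the highest of all samples. The log2 fold change was −1.01 with PC1 (SE 0.22, adjusted p = 0.436 by limma) and −0.26 without it (adjusted p = 0.779). At the Hoxb1 peak from 96390400 to 96390991 the values were 103, 103 and 146 in flox and 97.9, 185 and 116 in AKO, and the fitted change of −0.37 became 0.15 without PC1. Both fits lean on the covariate.

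Counted by sample, more HOX peaks lay higher than lower in AKO BAT. Flox replicates 1 and 2 were the deepest BAT libraries and AKO replicate 2 the shallowest. Genotype and depth are thus not fully separate in these counts, and the part of depth was not tested. In 9 of 52 peaks (17.3%) every AKO mouse lay above every flox mouse, against 8.77% of all peaks, and in 1 (1.92%), at Hoxb6, every AKO mouse lay below, against 8.84%. Peaks were kept if called in at least 2 of 3 samples of either genotype. A site low in flox could thus enter through AKO alone, and the shares of all peaks span peaks of every level. By flox CPM per kb the 9 stood at percentiles of 0.646 to 12.7 among all BAT peaks. The 9 were at Hoxa13, Hoxb9, Hoxc9, Hoxc11 and Hoxc13, at 1 peak each, and at 2 peaks each of Hoxb1 and Hoxd1. Hoxa13, a gene of the digits and the genital tract whose upstream sequence is printed above, was 1 of them. Its peak held 110, 120 and 136 normalized reads in flox and 165, 303 and 209 in AKO. Its log2 fold change was 0.43 with PC1 (adjusted p = 0.596 by limma) and 0.88 in DESeq2 without PC1 (adjusted p = 0.0799), the only HOX call of that fit, which called 0.512% of all peaks higher and 0.517% lower. Hoxa13 was chosen after its values were seen. Without PC1, limma called 0 peaks, and 9 HOX peaks were higher and 0 lower at an unadjusted p under 0.05 (17.3% and 0%), against 7.57% and 4.37% of all peaks.

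AKO replicate 2 stood out at these peaks. It was the highest of the 6 samples at 27 of 52 HOX peaks, against 29.6% of all peaks, and at 10 of the 14 peaks of groups 9 to 13. Without it, AKO lay above flox with no overlap at 11 HOX peaks (21.2%) and below at 2 (3.85%), against 11.4% and 12.9% of all peaks. The remaining AKO replicates 1 and 3 had median log2 differences from the flox mean of 0.34 and 0.36 over groups 9 to 13, against 0.99 in replicate 2, and of −0.04 and −0.01 over groups 4 to 8. Flox replicate 3, the shallowest flox library, had 0.42 over groups 9 to 13, above both. Over groups 1 to 3, AKO replicates 1, 2 and 3 had 0.27, 0.45 and 0.17, and flox replicate 3 had 0.21. Leaving out a sample raises such counts over all peaks too. Without flox replicate 3, AKO lay above flox at 21 HOX peaks (40.4%) and below at 3 (5.77%), against 19.8% and 16.9% of all peaks. The counts without AKO replicate 3 were 14 (26.9%) and 5 (9.62%), against 14% and 14.5%. Without flox replicates 1 and 2 in turn 11 and 12 HOX peaks lay higher, against 11.5% and 12.4% of all peaks, and 3 and 4 lower, against 12.5% and 12.3%. Without AKO replicate 1 there were 13 and 4, against 15.1% and 15.3%.

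For the high anterior and central peaks of BAT the fold change also moved with the covariate. The Hoxa5 start had a log2 fold change of 0.03 (SE 0.21) with PC1 and −0.29 without, Hoxb4 of 0.01 and −0.03, the Hoxa4 start of 0.06 and −0.05, the Hoxc4 peak 34790 bp downstream of −0.04 and −0.39, and Hoxd8 of −0.04 and 0.29. The Hoxc8 start had 0.25 with PC1 and 0.45 without. The Hoxc10 exon had 0.58 with PC1 (adjusted p = 0.640 by limma) and 1.43 without (adjusted p = 0.343 by limma). None of these passed the test in either fit. Over groups 1 to 3 the median was 0.21 and 13 of 16 peaks had a positive value. Over groups 4 to 8 it was −0.03 with 9 of 22, and over groups 9 to 13 it was 0.11 with 10 of 14. Of all peaks 50.9% had a positive value. Without PC1 the medians were 0.28, −0.08 and 0.56 in that order.

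**Figure D4:**
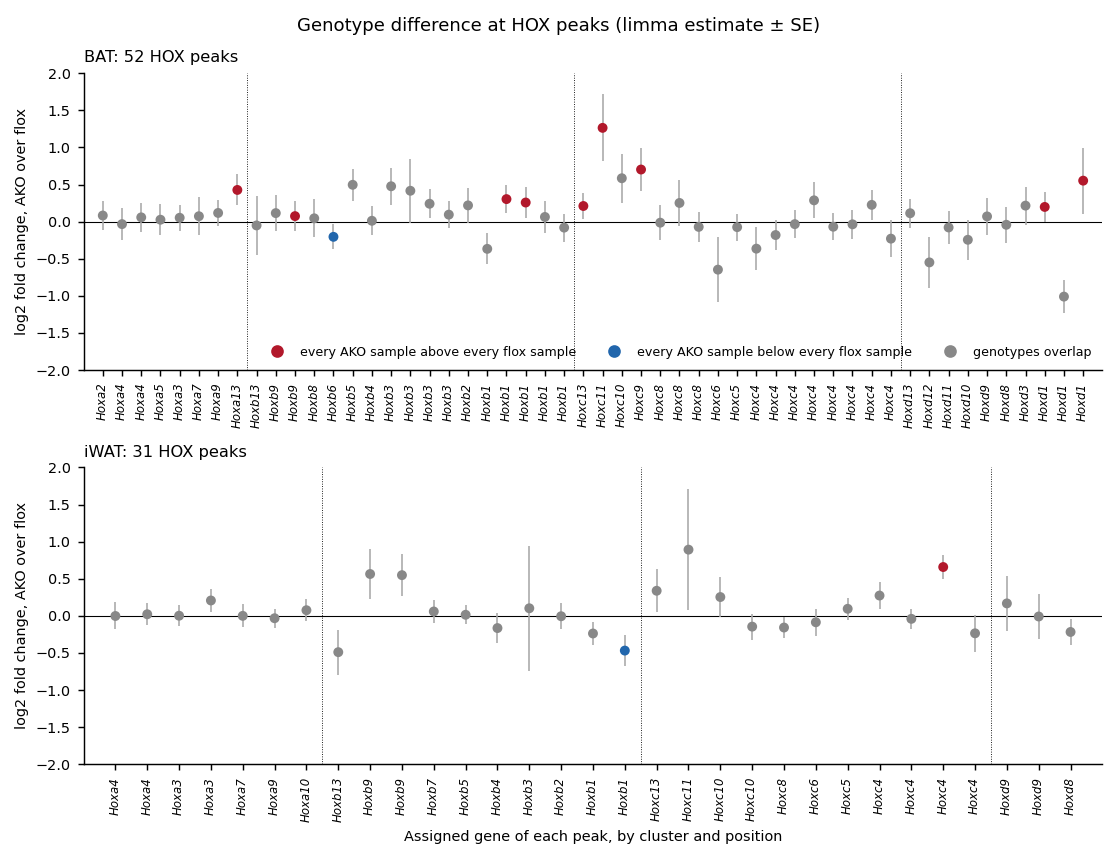
Log2 fold change of AKO over flox with its SE at each HOX peak, from limma, for BAT (with PC1) and iWAT, ordered by cluster A to D and position. Red and blue points mark the peaks where the genotypes did not overlap, 9 higher and 1 lower in BAT and 1 of each in iWAT.

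Markers of several cell types were compared between the genotypes in BAT. Over all BAT peaks, 8.77% lay higher and 8.84% lower in AKO without overlap. Peaks of 5 brown adipocyte markers summed to 1312 to 1553 CPM in flox and 927 to 1032 in AKO. Of the 34 peaks 16 lay lower in AKO without overlap and 0 higher. Mean CPM in flox and AKO was 479 and 199 at Ucp1, 297 and 231 at Cidea and 556 and 427 at Ppara. It was 76.6 and 75.3 at Zic1 and 48.6 and 50.5 at Lhx8. Adipocyte markers summed to 1060 to 1134 and 784 to 1009, with 3 of 22 peaks higher and 7 lower without overlap. The 3 higher were those of Adipoq, the gene of adiponectin, at 74.4 ± 7.42 CPM in flox and 105 ± 9.63 in AKO. Preadipocyte and fibroblast markers summed to 117 to 124 and 123 to 143, with 4 of 11 peaks higher and 0 lower. Endothelial markers summed to 157 to 188 and 168 to 217, with 2 of 26 peaks higher and 1 lower. Macrophage markers (3 peaks) summed to 17.9 to 28.3 and 18.3 to 24.6, lymphocyte markers (1 peak) to 8.11 to 9.09 and 7.14 to 11.3, skeletal muscle markers (3 peaks) to 20.8 to 25.4 and 21.3 to 34.6, and epithelial markers (6 peaks) to 51.0 to 59.9 and 52.5 to 57.6. Of the epithelial peaks 2 lay higher and 1 lower without overlap, and of the macrophage, lymphocyte and muscle peaks 0 did. No BAT peak was assigned to Ly6a, Csf1r, Cd68, Cd79a, Cd3e, Cd3d, Ptprc, Myod1, Ckm, Krt5, Krt14 or Krt18. The part of these markers in the HOX values was not tested.

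Cold-acclimated iWAT was compared between the genotypes without PC1, by aliquots of 1 pool per genotype. By limma 0 of 31 HOX peaks passed an adjusted p of 0.1 and 0 of all 39558 peaks did (0%). The lack of HOX calls thus does not show that HOX peaks were unchanged. At an unadjusted p under 0.05 1 HOX peak was higher and 0 lower, against 7.61% and 7.42% of all peaks. The genotypes did not overlap at 1 peak that was higher and 1 that was lower (3.23% each), against 10.6% and 10.3%. Without flox replicate 2 there were 4 and 4 (12.9% each), against 17.6% and 18.2% of all peaks, and without flox replicate 3 there were 3 and 3 (9.68% each), against 15.3% each. Without AKO replicate 2 there were 4 (12.9%) and 2 (6.45%), against 16.1% and 15.2%. Leaving out flox replicate 1 gave 1 and 2, against 14.2% each, AKO replicate 1 gave 1 and 1, against 16.1% and 15.1%, and AKO replicate 3 gave 1 and 2, against 16.5% and 15.7%. The median log2 fold change was 0.0014 over HOX peaks and −0.00089 over all peaks. HOX peaks together held 583, 584 and 588 CPM in flox and 590, 580 and 582 in AKO aliquots, which overlapped.

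The higher peak lay far downstream of Hoxc4, at 51605 bp, from 103085849 to 103086152. It held 47.8, 66.7 and 57.7 normalized reads in flox and 86.4, 93.6 and 90.9 in AKO, a log2 fold change of 0.66 (SE 0.16, adjusted p = 0.166 by limma). edgeR called it (adjusted p = 0.0607), the only HOX call of that fit, which called 2.15% of all peaks higher and 2.52% lower, and DESeq2 did not (adjusted p = 0.161). DESeq2 called 0 of the 29 HOX peaks it tested, and 0.546% of all peaks higher and 0.63% lower. The next peak, from 103087313 to 103087611, held 42.8, 61.1 and 78.3 in flox and 39.2, 58.2 and 54.5 in AKO and overlapped. In BAT the overlapping peak, from 103085760 to 103086193, held 362, 253 and 225 in flox and 266, 226 and 272 in AKO, a log2 fold change of 0.23, and its genotypes overlapped.

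The lower iWAT peak was assigned to Hoxb1 and lay 48133 bp downstream, from 96413533 to 96414237. Its values were 149, 126 and 117 in flox and 69.2, 113 and 105 in AKO, a log2 fold change of −0.47 (SE 0.21, adjusted p = 0.357 by limma). AKO aliquot 1 was the lowest by far. The next smallest p of each direction belonged to Hoxb9, a gene of the ribs, in exon 1, with 28.5, 20.01 and 31.0 in flox and 50.7, 25.1 and 44.9 in AKO (log2 fold change 0.55), and to Hoxb13, a gene of the tail and prostate, in exon 2, with 46.3, 37.8 and 23.2 in flox and 17.3, 32.0 and 25.7 in AKO (log2 fold change −0.49). Both overlapped between genotypes. The Hoxc10 start had −0.15, the Hoxc8 peak 8783 bp downstream −0.16, Hoxa9 −0.03, Hoxa10 0.08, the peak assigned to Hoxb7 0.06, Hoxb4 −0.17 and Hoxd8 −0.22, and none passed the test.

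In iWAT, brown adipocyte markers summed to 231 to 251 CPM in flox and 277 to 291 in AKO. Of their 15 peaks 5 lay higher and 2 lower in AKO without overlap, against 10.6% and 10.3% of all peaks. The genes differed, with 67.0 CPM in flox and 87.2 in AKO at Cidea and 98.7 and 127 at Ppara. Ucp1 held 37.0 and 36.2, Zic1 20.1 and 17.3, and Lhx8 17.3 and 16.3. Adipocyte markers summed to 453 to 585 and 433 to 478, and lymphocyte markers to 48.6 to 52.2 and 35.7 to 41.8. Preadipocyte and fibroblast markers summed to 288 to 306 and 278 to 321, endothelial to 163 to 181 and 143 to 157, macrophage to 44.6 to 55.5 and 41.9 to 49.9, skeletal muscle to 47.4 to 55.9 and 52.0 to 57.7, and epithelial to 71.1 to 77.1 and 74.8 to 77.9. No iWAT peak was assigned to Ly6a, Tie1, Cd68, Mrc1, Cd79a, Cd3e, Myod1, Ckm, Myh4, Krt5, Krt14 or Krt18. The part of the markers in the iWAT HOX values was not tested.

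Limma called 0 peaks in either depot, so its lack of calls at genes that act upon HOX genes says nothing about them. Their counts are to be read against the shares of all peaks without overlap given above, 8.77% higher and 8.84% lower in BAT and 10.6% and 10.3% in iWAT. Polycomb genes had 47 peaks in BAT, 4 higher and 4 lower in AKO without overlap, and 32 in iWAT, 3 and 5. Trithorax genes had 23 peaks in BAT, 2 higher and 5 lower, and 17 in iWAT, 0 and 3. Kdm6b, a demethylase that removes the Polycomb mark from histone H3, accounted for 4 of those 5, with 276 ± 31.4 in flox and 213 ± 20.7 in AKO BAT. Genes that act upstream of HOX genes, such as the Cdx genes and retinoic acid receptors, had 31 peaks in BAT, 2 higher and 2 lower, and 18 in iWAT, 1 and 2, with no peak at Cdx2 or Cdx4. DESeq2 called 0 peaks of the Polycomb, trithorax and upstream lists in both depots. edgeR called 3 lower in iWAT, where it called 2.52% of all peaks lower, and 0 in BAT.

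A larger share of HOX peaks than of all peaks was rich in CpG sites, a trait that the choice of members did not use. In the 300 bp around the peak centre, CpG sites reached more than 0.6 of the number that the base composition gives in 24 of 52 BAT HOX peaks (46.2%) and 17 of 31 iWAT HOX peaks (54.8%), against 19.8% and 27.9% of all peaks. Median GC content was 56.8% and 59.3%, against 52.3% and 54.7%. The peaks were not matched by location, and 15 BAT and 4 iWAT HOX peaks covered a start. By flox CPM per kb the HOX peaks stood at a median percentile of 27.0 among all BAT peaks and 38.7 among all iWAT peaks, and BAT peaks of groups 9 to 13 at 7.53.

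Sites where HOX proteins can bind with homeodomain cofactors (TGATTNAT, on both strands) are shown because HOX genes are known to be regulated by HOX proteins. In those 300 bp windows the letters occurred in 5.77% of BAT and 6.45% of iWAT HOX peaks, 3 and 2 peaks, in windows that can reach past a short peak, against 2.42% and 2.23% of all peaks, and they occurred in 3.22% of all RefSeq promoters of 300 bases. The Hoxa9 peak was the only one of both depots with a match anywhere in its length. In BAT further matches lay in peaks at Hoxa2, Hoxa4, Hoxb1, Hoxb2, Hoxc4 and Hoxd11. Capitals mark the match on its own strand, in Hoxa9 (chr6:52226498-52226553, minus), Hoxa2 (chr6:52164509-52164564, plus) and Hoxb2 (chr11:96351891-96351946, minus).
Hoxa9: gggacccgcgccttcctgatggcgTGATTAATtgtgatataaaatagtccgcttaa
Hoxa2: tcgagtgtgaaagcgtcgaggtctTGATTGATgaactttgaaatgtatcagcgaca
Hoxb2: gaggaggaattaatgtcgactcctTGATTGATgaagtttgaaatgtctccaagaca
These matches are of letters and are not known to be bound.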

How the data were processed

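ATAC-seq was analysed in whole BAT and iWAT, 3 flox and 3 AKO samples each. The authors trimmed adapters, mapped reads to mm10 with bwa 0.7.17-r1188, removed duplicates with Picard 2.8.14, kept autosomal reads of mapping quality 30 or more and called broad peaks per sample with macs2 2.1.1.20160309. They kept peaks called in at least 2 of 3 samples of a genotype and counted reads with bedtools 2.27.1. The deposited values are a signal per peak, reads scaled by the authors with DESeq2 1.20.0 size factors, and nearest genes are theirs. Paper and labels differ in nuclei per reaction, 5000 and 50000, and in the iWAT sequencer. The tables also hold the authors' fold changes and p-values, which were not used.

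Undoing the size factor gave whole reads, to within 0.01, for 100% of the values. Deposited start positions count from 0, so 1 was added. Each table was fitted with limma 3.58.1 (lmFit and eBayes) on log2(normalized reads + 1) over all peaks, with PC1 of these values as a covariate in BAT as in the paper and none in iWAT, and Benjamini-Hochberg adjustment at 0.1. A fold change on that scale understates the change of low peaks. edgeR 4.0.16 and DESeq2 1.42.0 on the recovered reads were alternatives. CPM are recovered reads scaled to 1000000 reads in peaks. Genes follow the principal GENCODE vM21 transcript, and distances run to the peak midpoint. The limma fit without a covariate was run on simulated data (seed 1), and the BAT fit with PC1 was not tested in this way. R 4.3.3 and Python 3.11.15 were used.

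The members, gene lists and tests were chosen with earlier results of these data known. Named peaks followed a rule: peaks within 1 kb of the starts of Hoxa5, Hoxc8, Hoxc9 and Hoxc10, the highest flox peak per cluster and depot, called peaks, the 2 smallest p-values per direction, and the 3 highest peaks per depot without a counterpart. Peaks named outside that rule were chosen after their values were seen. A further list of genes is not reported here.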

Additional observations from a re-analysis of the deposited data

How the results depend on the processing

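Replicate numbers did not pair the samples (correlations of same-numbered deviations 0.49, 0.06 and −0.24 in BAT and −0.04, −0.05 and −0.06 in iWAT). A replicate block in place of PC1 called 0 HOX peaks in BAT with a median of 0.223, and a replicate block in iWAT called 0. In BAT the median was 0.223 without PC1, 0.216 in DESeq2 and 0.224 in edgeR without PC1, and DESeq2 without PC1 called 1 HOX peak higher. The fits of DESeq2 and edgeR without PC1 were chosen after seeing the data. In iWAT edgeR called 1 higher, and the median was −0.0916 with PC1, whose scores there separate the genotypes, so that this fit says little.

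Peaks with AKO below flox in BAT were 2 with total reads, 3 with cyclic loess, 0 with at least 10 reads in every sample and 3 over every peak inside the clusters. Neither the peaks with AKO above nor the shares of all peaks are given here for these settings. Such counts alone show no excess or lack. With 1 sample left out, peaks with AKO below flox in BAT ranged from 2 to 5, and those with AKO above from 11 to 21, highest without flox replicate 3. In iWAT these ranged from 1 to 4 and from 1 to 4.

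BAT A had 14 peaks within 10 kb of a start. With at least 10 CPM in flox, B had 6 peaks in BAT and 5 in iWAT, BAT C 8, and D 1 in each. Inside the cluster span BAT D had 16. The BAT share with a counterpart was 26.9% with 50% of both peaks and 32.7% with 50% of the HOX peak, and the iWAT share 45.2% with 50% of both.

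The iWAT to BAT ratio over peaks of both depots was 0.849 in A, 1.16 in B, 1.19 in C and 1.39 in D. Scaled to reads in shared peaks it was 0.557, 0.824 and 0.836 in A, B and C, and by size factors 0.519, 0.768 and 0.778. It was 0.763 in B and 0.369 in D from AKO samples, and 0.894 in C over every peak in the span. Under these scalings groups 9 to 13 had 1.28 and 1.2 against 1.48. Their share, chosen after seeing the data, was 17.7% in BAT and 25.8% in iWAT from AKO samples, and 21.0% in iWAT over peaks with a counterpart. Of the recomputed fold changes of single named peaks, 61 changed sign, none of them called, 376 kept their sign and their side of the threshold, and 1 passed it (Hoxc4 in iWAT by edgeR). Few reads limit the weak posterior peaks, with flox means down to 0.637 CPM.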
